A study of Mus musculus with 9 samples.

Results

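Transcripts of 8 genes for CD300 and paired immunoglobulin-like receptors were followed across sorted lung neutrophils of the mouse 4T1-LM3 breast cancer model. The genes were taken by symbol and are Cd300a, Cd300lb, Cd300ld, Cd300lf, Pirb, Lilrb4a, Pilra and Pilrb1, 8 of 22064 genes listed. All 8 passed the filter on low counts and are among the 14108 genes tested. The 9 bulk RNA-seq libraries came from female BALB/c mice, 3 in each of 3 groups. The macro Ly6Ghigh and macro Ly6Glow groups are neutrophils sorted as CD45+ cells with high or low surface Ly6G from lungs at the macrometastatic stage, after 4T1-LM3 cells were placed orthotopically in the mammary fat pad. The normal Ly6Ghigh group is CD45+ Ly6Ghigh neutrophils from lungs of mice without tumor cells. 4T1-LM3 cells descend from the mouse mammary tumor line 4T1, given a firefly luciferase reporter per the paper, and were picked for growth in the lung by repeated passage in mice. The mice of no group carry an engineered allele. The labels give no age, and the paper's methods give an age range for the mice as purchased alone. The labels do not say whether a library is 1 mouse or a pool, so p-values measure the spread between these libraries, which may be partly technical. The normal libraries are marked as such by the letters NL in their titles and by a treatment field that names no tumor cells, while their descriptions give the Ly6Ghigh group alone.

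These receptors sit on myeloid cells as inhibitory and activating relatives that often share ligands. Inhibitory members carry a cytoplasmic ITIM motif that, once phosphorylated, recruits the phosphatases SHP-1 (Ptpn6), SHP-2 (Ptpn11) or SHIP-1 (Inpp5d), whereas activating members have short tails and signal through the ITAM adaptors DAP12 (Tyrobp) or the Fc receptor gamma chain (Fcer1g) to the kinase Syk. CD300 receptors bind membrane lipids exposed on dying or activated cells, PIR-B (Pirb) binds MHC class I, and PILR receptors bind glycosylated ligands such as CD99. In neutrophils, PIR-B and PILR-alpha restrain integrin-dependent adhesion, and CD300ld has been described as a receptor needed for the suppressive function of tumor-associated neutrophils.

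The neutrophil identity of the libraries was checked against markers, since it touches each comparison with normal lung. The 10 neutrophil markers summed to 97159 to 99411 CPM (counts scaled to the TMM-adjusted library size) in macro Ly6Ghigh, 82212 to 83940 in macro Ly6Glow and 21968 to 22159 in normal libraries, and the median log2 fold change of these 10 genes was 0.09 between the macro groups and 1.96 for macro Ly6Ghigh against normal. Between the macro groups the single genes ranged from -2.55 to 0.89. Camp, Ltf and Ngp had means of 159, 3052 and 5901 CPM in macro Ly6Glow against 934, 11444 and 17196 in macro Ly6Ghigh. Csf3r, Retnlg, Cxcr2 and Mmp8 were higher in macro Ly6Glow, at 6928, 4332, 2713 and 3621 against 3745, 2341, 1716 and 2226. Sums of 6 epithelial, 5 endothelial and 5 fibroblast markers were 891 to 987, 677 to 755 and 514 to 545 in the normal libraries, against 87.5 to 98.0, 77.3 to 95.5 and 49.4 to 57.6 over both macro groups. The 14 alveolar macrophage markers summed to 394 to 404, 131 to 135 and 1408 to 1413 in macro Ly6Ghigh, macro Ly6Glow and normal libraries, and 10 monocyte and macrophage markers to 561 to 566, 527 to 548 and 637 to 672. Of the latter sums, Csf1r alone had means of 217, 299 and 261 CPM. The median log2 fold change of these 10 genes was -0.41 between the macro groups. It was -1.19 and -1.46 in macro Ly6Ghigh and macro Ly6Glow against normal, within ranges of -2.38 to 1.16 and -3.15 to 0.61. Between the macro groups, 5 eosinophil markers summed to 79.5 to 85.9 and 7.23 to 8.36, and 5 granule genes of immature neutrophils to 89.9 to 91.0 and 16.2 to 18.4. In normal libraries these 2 sums were 3.00 to 4.25 and 2.97 to 4.18. The 10 dendritic cell markers summed to 763 to 811, 464 to 506 and 1916 to 2190 in macro Ly6Ghigh, macro Ly6Glow and normal libraries, and all 10 fell in both comparisons with normal lung. In the same order, 5 T cell markers summed to 41.1 to 42.8, 30.0 to 30.2 and 61.6 to 64.3, 5 B cell markers to 46.3 to 47.3, 28.1 to 30.0 and 27.4 to 29.9, 5 NK cell markers to 6.37 to 7.04, 2.63 to 3.66 and 11.9 to 12.7, and 7 basophil and mast cell markers to 43.1 to 45.0, 25.1 to 28.7 and 26.3 to 29.1. Gata2 alone had means of 14.4, 9.77 and 24.4 CPM within the basophil and mast cell sums, highest in normal libraries. The median log2 fold change of the 6 tested basophil and mast cell markers was 1.80 in macro Ly6Ghigh and 1.01 in macro Ly6Glow against normal, with Gata2 going the other way. No marker of these lists was at 0 in all libraries of a group. Ly6g, the gene of the sorting antigen, had 361 to 380 CPM in macro Ly6Ghigh, 385 to 403 in macro Ly6Glow and 118 to 120 in normal libraries, while its FPKM was 396 to 417, 358 to 373 and 178 to 184, so the order of the macro groups differed between the scales and their log2 fold change of 0.08 missed the threshold (edgeR adjusted p = 0.0577). In bulk RNA, fewer cells of a type and less RNA per cell cannot be told apart, and the part of the marker differences in the receptor results below was not tested.

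Promoter sequences of some members and of a near copy are given first. The 4 CD300 members lie within a cluster on chromosome 11 (build GRCm38.p6, the patch release of mm10; Cd300a at chr11:114889152-114901946 and Cd300lf at chr11:115116214-115135372 are its outer members here). Pirb lies on chromosome 7 (chr7:3712505-3720382), Lilrb4a on chromosome 10 (chr10:51490898-51496613), and Pilra and Pilrb1 on chromosome 5 (chr5:137821952-137836278 and chr5:137852141-137858425). The 250 bases before the RefSeq start are printed 5' to 3' on the strand of the gene for Pirb, for Pilra and Pilrb2 (a near copy of Pilrb1), and for Cd300ld and Cd300lb, which differed in their values against normal lung. Capitals mark the letters GAGGAA, the core bound by the myeloid factor PU.1, or TTCCTC where it lies on the other strand.
Pirb, chr7:3720383-3720632, minus strand: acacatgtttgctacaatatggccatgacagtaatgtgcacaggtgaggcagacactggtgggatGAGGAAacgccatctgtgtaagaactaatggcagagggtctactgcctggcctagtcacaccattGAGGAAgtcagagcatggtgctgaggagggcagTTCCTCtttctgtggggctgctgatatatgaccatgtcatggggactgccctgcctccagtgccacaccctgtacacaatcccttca
Pilra, chr5:137836279-137836528, minus strand: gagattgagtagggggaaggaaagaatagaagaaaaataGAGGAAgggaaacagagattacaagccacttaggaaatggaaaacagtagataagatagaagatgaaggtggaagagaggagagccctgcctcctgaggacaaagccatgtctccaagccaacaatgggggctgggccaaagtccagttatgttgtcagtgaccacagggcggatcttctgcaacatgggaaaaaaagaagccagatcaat
Pilrb2, chr5:137871759-137872008, minus strand: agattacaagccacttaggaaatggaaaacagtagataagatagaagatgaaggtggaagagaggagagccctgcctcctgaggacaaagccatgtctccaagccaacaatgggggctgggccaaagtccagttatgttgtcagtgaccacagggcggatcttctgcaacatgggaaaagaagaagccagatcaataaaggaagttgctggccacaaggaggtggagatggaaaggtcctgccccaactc
Cd300ld, chr11:114989887-114990136, minus strand: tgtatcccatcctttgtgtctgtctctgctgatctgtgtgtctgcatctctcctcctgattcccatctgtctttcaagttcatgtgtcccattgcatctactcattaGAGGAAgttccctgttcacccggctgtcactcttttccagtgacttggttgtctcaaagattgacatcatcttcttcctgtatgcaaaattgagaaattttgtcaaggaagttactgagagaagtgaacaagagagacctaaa
Cd300lb, chr11:114934372-114934621, minus strand: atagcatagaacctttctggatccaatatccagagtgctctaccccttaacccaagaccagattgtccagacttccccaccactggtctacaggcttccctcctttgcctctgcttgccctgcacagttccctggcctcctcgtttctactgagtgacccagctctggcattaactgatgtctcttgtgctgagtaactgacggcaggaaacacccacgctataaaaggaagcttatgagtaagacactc
Of the 7 members with such a window, 5 (Cd300a, Cd300ld, Cd300lf, Pirb and Pilra) held GAGGAA on either strand, against 23.3% of the 32851 windows of all genes. The C/EBP pattern TTGCNNAA was in 3 of 7 (Cd300a, Pilra and Pilrb1), against 9.56% of all windows, and the STAT pattern TTCNNNGAA and the AP-1 pattern TGANTCA were in 0 of 7, against 7.02% and 6.75%. No match of one pattern overlapped another in these windows, and they are letter matches only. The Pirb window matched that of Pira1, its activating relative, at 245 of 250 bases, and the Pilra window matched those of Pilrb1 and Pilrb2 at 192 and 195 of 196 aligned bases, so the inhibitory and activating partners share nearly all letters over the aligned part. The GAGGAA of Pilra lies 211 bases before its start, ahead of the aligned part. The windows of Pilrb1 and Pilrb2 do not reach the matching position, so the PILR windows cannot be compared for it. The windows of Cd300ld and its relative Cd300ld3 matched at 182 of 206 aligned bases. Those of Cd300lb and Cd300lf, the members with the closest profiles, aligned over 21 bases alone, with 16 identical.

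Lilrb4a had the highest transcript level per length among the 8 receptors in every library, followed by Cd300lf and Pirb. FPKM (fragments scaled for transcript length and library total) was used for all levels compared between genes. Lilrb4a had 1590 to 1629 FPKM in macro Ly6Ghigh, 2053 to 2136 in macro Ly6Glow and 1797 to 1907 in normal libraries, which placed it 28th to 29th, 24th to 25th and 15th among all genes. Cd300lf had 586 to 595, 745 to 763 and 418 to 428 FPKM, and Pirb 444 to 462, 424 to 428 and 205 to 213 FPKM. The other members stood between 27.7 and 108 FPKM. Below the first 3 members the order changed between groups: in macro Ly6Ghigh libraries it was Pilra, Cd300lb, Cd300a with Pilrb1, and Cd300ld, where the ranges of Cd300a and Pilrb1 overlapped. In macro Ly6Glow libraries it was Cd300lb, Pilra, Cd300ld, Cd300a and Pilrb1, with no overlap of Cd300lb and Pilra but FPKM of 103 to 108 and 99.4 to 102. In normal libraries it was Pilra, Cd300lb with Cd300a (overlapping ranges), Cd300ld and Pilrb1. The 5 inhibitory members held 94.3 to 94.5% of the members' summed FPKM in macro Ly6Ghigh, 93.4 to 93.6% in macro Ly6Glow and 95.0 to 95.3% in normal libraries.

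**Figure D1:**
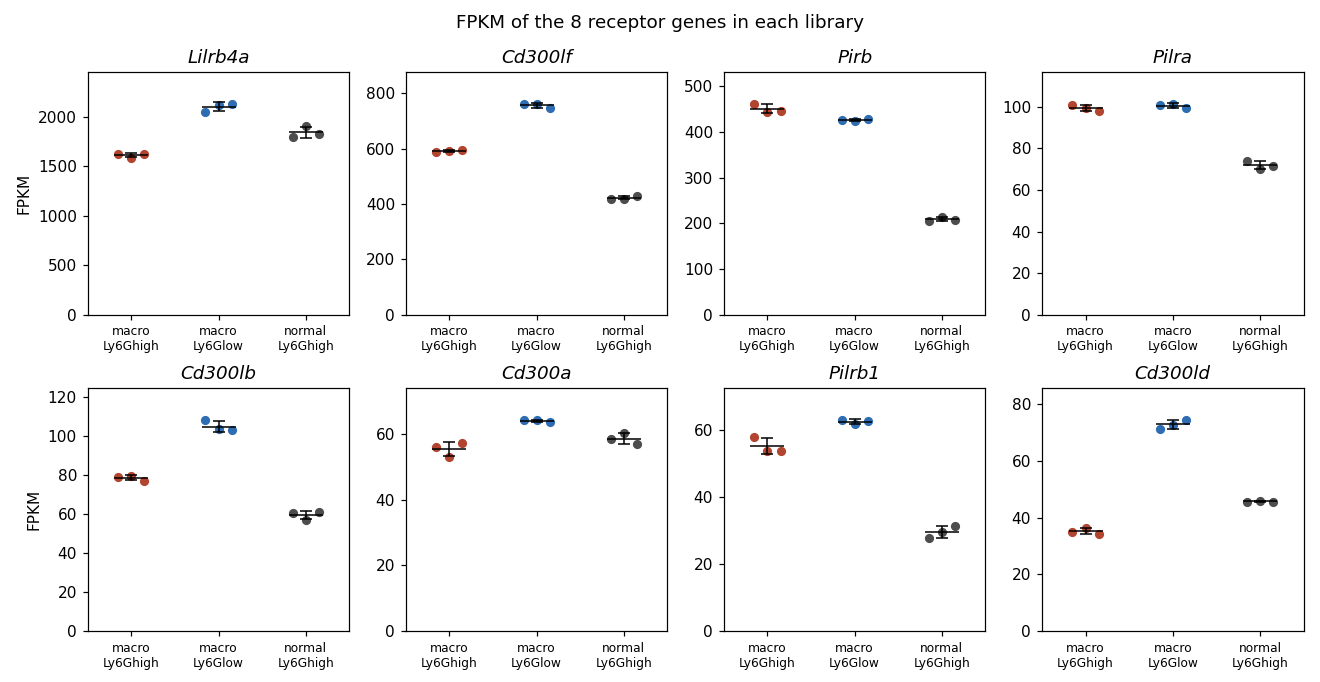
FPKM of each receptor gene (vertical axis, from 0, own scale per panel) in each of the 9 libraries (points), by group, with the mean and SD over 3 libraries (bar). Cd300ld stands at 71.3 to 74.5 FPKM in macro Ly6Glow against 34.3 to 36.3 in macro Ly6Ghigh, whereas Pirb and Pilrb1 are set apart mainly between normal libraries and both macro groups.

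Differences between groups were tested on the counts, scaled by TMM, with edgeR's quasi-likelihood test, and a gene was called higher or lower where its adjusted p was 0.05 or less and its log2 fold change exceeded 0.58 in size. Between the macro groups, 4 of 8 members rose in Ly6Glow (Cd300lb, Cd300ld, Cd300lf and Lilrb4a) and 0 fell, while 9.29% of all tested genes were called higher and 15.9% lower. Against normal lung, 5 of 8 members rose in macro Ly6Ghigh (Cd300lb, Cd300lf, Pirb, Pilra and Pilrb1), where 26.3% of all genes were called higher and 36.6% lower. In macro Ly6Glow against normal lung 8 of 8 rose, where 28.7% were called higher and 40.8% lower, and 0 fell in either comparison with normal lung. The median log2 fold change of the members was 0.54, 0.85 and 1.41 in these 3 comparisons, and that of all tested genes was -0.04, -0.09 and -0.16. The last 2 comparisons share the normal libraries and the first shares a group with each. On this scale the libraries did not overlap for any member in any of the 3 comparisons, which also held for 62.1%, 85.3% and 86.9% of all genes. Without the fold threshold 8 members passed in each comparison, as did 55.8%, 84.6% and 86.8% of all genes, and at a threshold of 1 these numbers were 1, 2 and 6 members and 9.25%, 42.6% and 50.2% of all genes.

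The size of these differences depended on the scaling. TMM factors were 0.945 to 0.950 in macro Ly6Ghigh, 0.803 to 0.807 in macro Ly6Glow and 1.30 to 1.32 in normal libraries. On the log2(FPKM + 1) scale, which scales each library to its own total and was tested with limma, the median of all genes was -0.13, -0.32 and -0.49. There 1 member (Cd300ld), 2 members (Pirb and Pilrb1) and 5 members (Cd300lb, Cd300ld, Cd300lf, Pirb and Pilrb1) were called higher in the same 3 comparisons and 0 lower, against 2.27%, 10.1% and 7.97% of all genes called higher. The same members were called with counts scaled to library totals alone, where 4.04%, 12.3% and 9.43% of all genes were called higher. These 1, 2 and 5 members are therefore those called on both scales, and for each of the others both values are given below. Ratios of FPKM between members within a library do not change with the scaling factor of the library, but they carry the length correction of the FPKM.

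**Figure D2:**
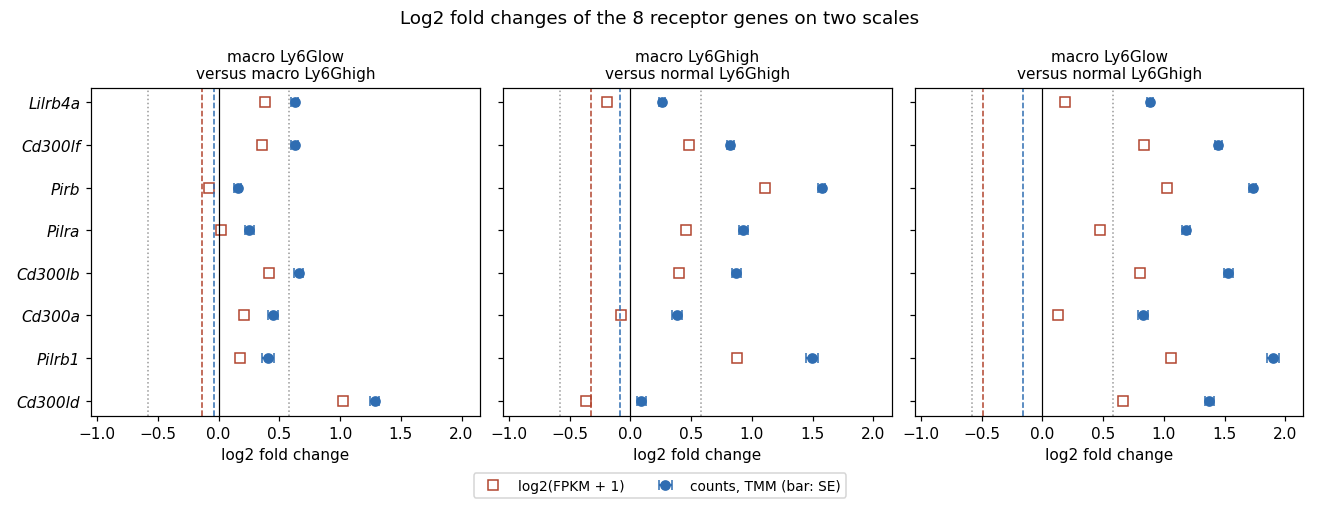
Log2 fold change of each receptor gene (horizontal axis) in the 3 comparisons, from counts with TMM (filled circles, bar = SE) and from log2(FPKM + 1) (open squares). Dashed lines are the median of all 14108 tested genes on the matching scale (blue for TMM, red for FPKM), and dotted lines are the call threshold of 0.58 on either side of 0. All circles lie right of the blue median, and Cd300ld in the first panel and Pirb and Pilrb1 in the second lie past 0.58 on both scales.

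Among the inhibitory CD300 receptors, Cd300lf rose in all 3 comparisons on the count scale. Cd300lf, which encodes the inhibitory receptor CLM-1, had 1361, 1357 and 1374 CPM in macro Ly6Ghigh, 2122, 2125 and 2076 in macro Ly6Glow and 771, 762 and 784 in normal libraries. The 3 groups were fully apart, with normal lowest and macro Ly6Glow highest, on the count and the FPKM scale alike. Between the macro groups it rose by 0.63 (SE 0.0274, edgeR adjusted p = 1.98e-14), and against normal by 0.82 (SE 0.0276, adjusted p = 2.52e-17) in macro Ly6Ghigh and by 1.45 in macro Ly6Glow. On the FPKM scale these were 0.36, 0.48 and 0.84, and only the last passed the fold threshold. Cd300a, an inhibitory receptor for phosphatidylserine and phosphatidylethanolamine, had 113, 106 and 114 CPM in macro Ly6Ghigh, 151, 153 and 151 in macro Ly6Glow and 85.8, 86.7 and 83.1 in normal libraries. Its log2 fold changes of 0.45 (SE 0.0396) and 0.38 (SE 0.0398) had edgeR adjusted p = 2.71e-09 and 1.02e-08 but stayed under the fold threshold, and it rose in macro Ly6Glow against normal by 0.83 with TMM scaling, a call lost with total-count scaling. In FPKM, Cd300a stood at 53.1 to 57.4, 63.8 to 64.4 and 57.1 to 60.4, so macro Ly6Ghigh overlapped normal there. On the FPKM scale its log2 differences were 0.21 between the macro groups, -0.08 in macro Ly6Ghigh against normal and 0.13 in macro Ly6Glow against normal (limma adjusted p = 0.00482), all under the fold threshold.

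Cd300ld was the member with the largest difference between the macro groups on both scales. Cd300ld, an activating receptor that pairs with the Fc receptor gamma chain, had 88.8, 91.5 and 86.3 CPM in macro Ly6Ghigh, 211, 217 and 221 in macro Ly6Glow and 84.0, 83.2 and 83.3 in normal libraries. Macro Ly6Glow stood alone, at 2.44 times macro Ly6Ghigh, and the other two groups had means of 88.8 and 83.5. The log2 fold change between the macro groups was 1.28 (SE 0.0382, edgeR adjusted p = 3.93e-17), higher than that of 98.7% of all genes, and 1.03 on the FPKM scale. For macro Ly6Ghigh against normal it was 0.09 (SE 0.0393, edgeR adjusted p = 0.0404), under the fold threshold, and the sign turned to -0.37 in FPKM, where macro Ly6Ghigh libraries had 34.3 to 36.3 and normal libraries 45.5 to 46.0. Against normal, Cd300ld rose in macro Ly6Glow by 1.37 in counts and 0.66 in FPKM. Cd300lb, an activating receptor that signals through DAP12, had 233, 232 and 227 CPM in macro Ly6Ghigh, 376, 360 and 356 in macro Ly6Glow and 130, 119 and 129 in normal libraries. The 3 groups were apart in the same order as for Cd300lf. Cd300lb rose by 0.66 (SE 0.0375, edgeR adjusted p = 1.68e-12), 0.87 (SE 0.0385, adjusted p = 3.53e-15) and 1.53, which in FPKM were 0.41, 0.40 and 0.81, the first 2 under the fold threshold.

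The CD300 genes kept or changed their proportions within libraries accordingly. The ratio of Cd300lf to Cd300lb FPKM was 7.42 to 7.73 in macro Ly6Ghigh, 7.02 to 7.38 in macro Ly6Glow and 6.96 to 7.35 in normal libraries, and the macro Ly6Glow and normal ranges overlapped. For macro Ly6Ghigh against normal, Cd300lf changed more than Cd300lb in FPKM (0.48 and 0.40). With total-count scaling it changed less (0.36 and 0.41), so the order of these 2 groups in this ratio differs between FPKM and counts. The ratio of Cd300lf to Cd300ld was 16.3 to 17.4, 10.0 to 10.7 and 9.09 to 9.41, highest in macro Ly6Ghigh with no overlap. The ratio of Cd300a to Cd300lb was 0.668 to 0.745, 0.594 to 0.624 and 0.935 to 1.06, highest in normal libraries. With 3 libraries against 3, an exact 2-sided permutation test cannot go below p = 0.1, so such separations are given as ranges. Cd300ld made up 4.49 to 4.78% of the FPKM of the 4 CD300 members in macro Ly6Ghigh, 7.10 to 7.55% in macro Ly6Glow and 7.69 to 7.91% in normal libraries, which sets macro Ly6Ghigh apart as the group with the smallest share.

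Pirb showed the opposite division, with a large difference from normal lung and a small one between the macro groups. Pirb, the inhibitory receptor for MHC class I, had 1289, 1234 and 1237 CPM in macro Ly6Ghigh, 1396, 1398 and 1403 in macro Ly6Glow and 419, 426 and 419 in normal libraries. Both macro groups were above normal, at 2.97 and 3.32 times its fitted level. Pirb rose by 1.57 (SE 0.0294, edgeR adjusted p = 1.28e-21) in macro Ly6Ghigh and by 1.73 (SE 0.0295, adjusted p = 2.53e-22) in macro Ly6Glow against normal, and by 1.11 and 1.02 on the FPKM scale. Between the macro groups the log2 fold change was 0.16 (SE 0.0285) in counts and -0.08 in FPKM, so its direction there turned with the scaling. The fold changes of Pirb against normal lay below the medians of the 10 neutrophil markers, 1.96 in macro Ly6Ghigh and 1.94 in macro Ly6Glow. This held for every member, the highest being at 1.57 and 1.90, and its cause was not tested.

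Lilrb4a, which encodes the inhibitory receptor gp49B, was the most abundant member and rose between the macro groups on the count scale. It had 3350, 3253 and 3328 CPM in macro Ly6Ghigh, 4981, 5175 and 5192 in macro Ly6Glow and 2718, 2829 and 2750 in normal libraries. Macro Ly6Glow was highest on both scales, while macro Ly6Ghigh stood above normal in counts and below it in FPKM. Lilrb4a rose by 0.63 (SE 0.0278, edgeR adjusted p = 2.46e-14) between the macro groups, against 0.38 in FPKM, and by 0.89 in macro Ly6Glow against normal, against 0.19 in FPKM, both FPKM values under the fold threshold. For macro Ly6Ghigh against normal its log2 fold change was 0.26 (SE 0.0277) in counts and -0.19 in FPKM. The ratio of Lilrb4a to Pirb FPKM was 3.53 to 3.65 in macro Ly6Ghigh, 4.82 to 5.00 in macro Ly6Glow and 8.75 to 8.93 in normal libraries, so the groups did not overlap on a measure that no library scaling factor changes.

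Both genes of the PILR pair rose against normal lung in counts, and Pilrb1 also in FPKM. Pilra, the inhibitory receptor, had 271, 266 and 262 CPM in macro Ly6Ghigh, 317, 321 and 313 in macro Ly6Glow and 145, 135 and 139 in normal libraries. Pilra rose by 0.93 (SE 0.0355, edgeR adjusted p = 2.38e-16) and 1.18 against normal in the 2 macro groups, which in FPKM were 0.46 and 0.48 and under the fold threshold. Pilrb1, the activating DAP12-coupled partner, had 76.7, 71.9 and 70.4 CPM in macro Ly6Ghigh, 98.0, 96.4 and 95.9 in macro Ly6Glow and 24.8, 25.6 and 27.4 in normal libraries. Pilrb1 rose by 1.49 (SE 0.0515, edgeR adjusted p = 4.04e-17) and 1.90, and by 0.88 and 1.06 in FPKM. Between the macro groups neither gene passed the fold threshold, with log2 fold changes of 0.25 for Pilra and 0.41 for Pilrb1 in counts and 0.02 and 0.18 in FPKM. The ratio of Pilra to Pilrb1 FPKM was 1.74 to 1.85, 1.59 to 1.65 and 2.30 to 2.68 in macro Ly6Ghigh, macro Ly6Glow and normal libraries, so that the 6 macro libraries all lay under the 3 normal ones.

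**Figure D3:**
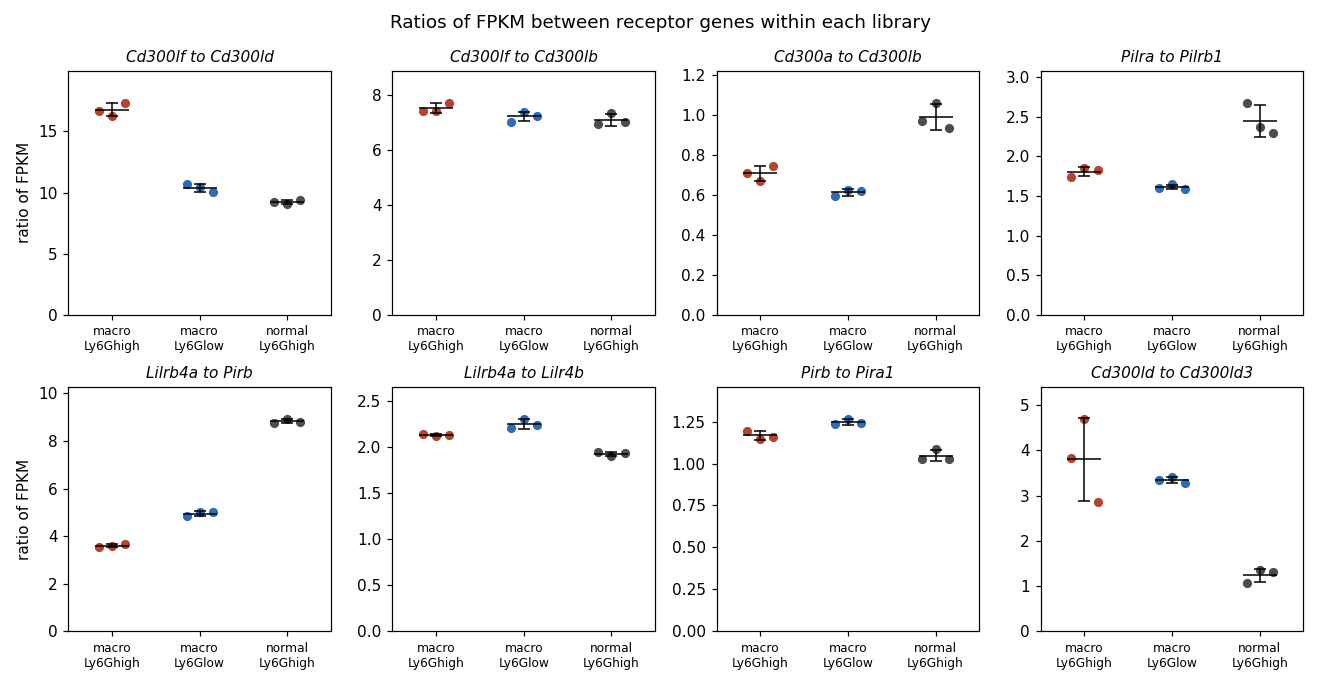
Ratios of FPKM between receptor genes within each of the 9 libraries (vertical axis, from 0; points are libraries, bars the mean and SD over 3). The Cd300lf to Cd300ld ratio is highest in macro Ly6Ghigh, and the Lilrb4a to Pirb and Pilra to Pilrb1 ratios are highest in normal libraries, each without overlap.

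Near copies of the members were read beside them. Of Pirb's transcript, 16.9% of all 150-base stretches (the read length) also occur exactly in transcripts of its PIR relatives, and 7.47% of Lilrb4a's in Lilr4b, against 0.362% of Pilrb1's in Pilrb2 and 0% for the other members, so the split of reads between Pirb and its copies is uncertain. All of Lilrb4a's stretches (100%) also occur in the overlapping gene model Gm49339. The count of Lilrb4a may therefore depend on how the counting program, which is not named, treated that model. Pira1, an activating MHC class I receptor, had 1164 to 1178, 1203 to 1235 and 429 to 447 CPM in macro Ly6Ghigh, macro Ly6Glow and normal libraries, and rose against normal by 1.41 and 1.47. In FPKM these were 0.95 and 0.77, also called. Pira2 rose by 0.88 and 0.77 in counts, but had 0.41 and 0.07 in FPKM. Lilra6 had 0.32 and 0.66, with the second called, and turned to -0.14 and -0.03 in FPKM. Summed with these 3 copies, Pirb had log2 fold changes of 0.10, 1.34 and 1.45 in the 3 comparisons and kept its calls. Pira1 has no entry by that name among the GENCODE transcripts compared, so stretches shared with Pira1 were not measured under its name. Among the names compared, the largest part of Pirb's shared stretches is in Gm14548, a predicted gene. It holds 12.4% of Pirb's stretches, with 2.12% in the predicted gene Gm15448. Gm14548 had 779 to 793, 901 to 929 and 349 to 375 CPM and rose against normal by 1.10 and 1.33 in counts and by 0.67 and 0.65 in FPKM. With both predicted genes added to the sum, a setting chosen after seeing the data, Pirb had 0.13, 1.29 and 1.42 and the same calls. Pilrb2 rose by 1.50 and 1.83 against normal (0.95 and 1.00 in FPKM, also called), and the Pilrb1 to Pilrb2 ratio of FPKM was 0.877 to 0.921 in macro Ly6Ghigh and 0.943 to 1.01 in macro Ly6Glow, both within the 0.830 to 1.03 of normal libraries. Lilr4b had log2 fold changes of 0.53 and 0.15, under the fold threshold, and rose by 0.68 in macro Ly6Glow against normal. In FPKM these were 0.30, -0.33 and -0.03.

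Some CD300 and LILR relatives went the other way. Cd300ld3, a neighbour of Cd300ld, had 7.55, 6.50 and 9.82 CPM in macro Ly6Ghigh, 20.6, 20.8 and 21.9 in macro Ly6Glow and 25.4, 20.4 and 20.9 in normal libraries. It rose between the macro groups by 1.41 (SE 0.121, edgeR adjusted p = 1.56e-09), as Cd300ld did, but fell by 1.48 in macro Ly6Ghigh against normal, and by 1.86 in FPKM. Cd300e, an activating receptor of monocytes, was low in the macro libraries, at 0.495 to 1.24 CPM, and fell by 2.49 and 2.60 against the 4.87 to 5.25 of normal libraries. Lilra5, another activating receptor, had 7.67 to 10.1 CPM in macro Ly6Ghigh, 0.487 to 0.610 in macro Ly6Glow and 38.9 to 40.6 in normal libraries, and fell in all 3 comparisons. Cd300c2 rose by 0.58 between the macro groups, at the fold threshold, and was at -0.03 in macro Ly6Ghigh against normal, against 0.34 and -0.47 in FPKM. Over the 15 tested relatives, 2 rose and 2 fell between the macro groups, and 5 rose and 3 fell in macro Ly6Ghigh against normal. In macro Ly6Glow against normal, 7 rose and 4 fell. On the FPKM scale these numbers were 1 and 1, 4 and 3, and 4 and 6. The shares of all tested genes called higher were 9.29%, 26.3% and 28.7% in counts and 2.27%, 10.1% and 7.97% in FPKM. Those called lower were 15.9%, 36.6% and 40.8% in counts, and 1923, 5134 and 6438 of 14108 genes in FPKM.

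On the count scale, most listed adaptors and kinases of the activating receptors were called higher than in normal lung. Of 12 listed genes, 10 rose and 0 fell in macro Ly6Ghigh against normal, 11 rose and 1 (Blnk) fell in macro Ly6Glow against normal, and 1 (Syk) rose and 1 (Blnk) fell between the macro groups. In FPKM the counts were 7 and 0, 6 and 1, and 0 and 1. Of all tested genes, 26.3%, 28.7% and 9.29% were called higher in the same order in counts, and 36.6%, 40.8% and 15.9% lower. In FPKM, 10.1%, 7.97% and 2.27% were called higher, and 5134, 6438 and 1923 of 14108 genes lower. Tyrobp (DAP12) had log2 fold changes of 0.42 between the macro groups and of 0.92 and 1.34 against normal, and Fcer1g of 0.33, 1.23 and 1.56. In FPKM, Tyrobp had 0.18, 0.45 and 0.64, with the last alone past the fold threshold, and Fcer1g had 0.09, 0.77 and 0.86, with both values against normal called. Syk, the kinase both adaptors engage, rose by 0.60 between the macro groups in counts (0.36 in FPKM, under the threshold). Among the 4 phosphatases, 0, 1 and 2 rose in the 3 comparisons and 0 fell, while in FPKM 0, 1 and 1 rose and 0, 0 and 2 (Ptpn11 and Inppl1) fell. Ptpn6 rose by 1.50 and 1.39 against normal, with -0.11 between the macro groups, and Inpp5d rose only in macro Ly6Glow against normal, by 0.78 in counts and not in FPKM (0.09). Ptpn11 had 0.14 and 0.01 against normal in counts, but was called lower in macro Ly6Glow in FPKM, at -0.65. Inppl1, which encodes SHIP-2, had -0.38, 0.15 and -0.23 in counts and -0.55, -0.27 and -0.82 in FPKM, the last of these called.

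**Figure D4:**
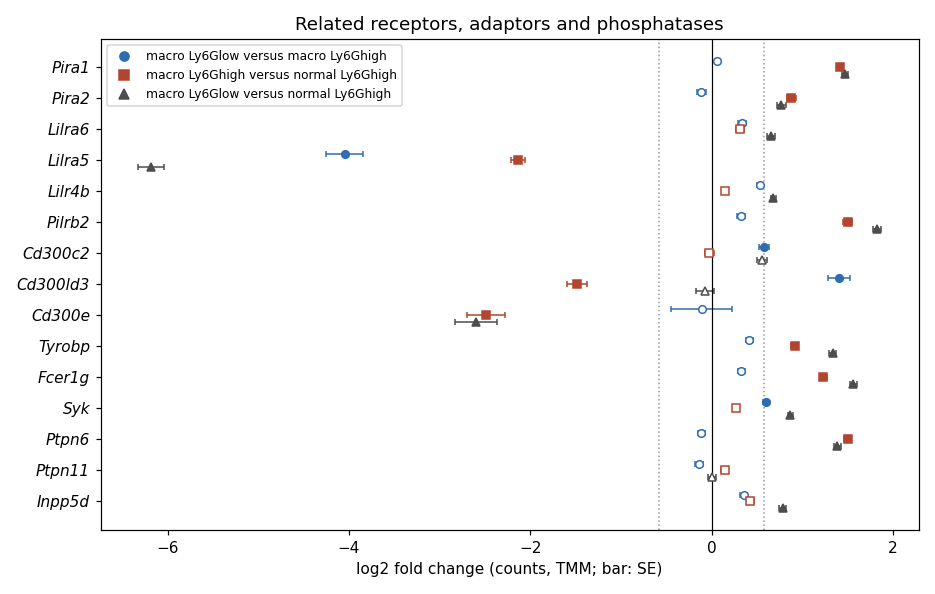
Log2 fold changes (horizontal axis, counts with TMM, bar = SE) of receptor relatives, adaptors, Syk and ITIM phosphatases in the 3 comparisons, filled where called and open where not, with dotted lines at 0.58 on either side of 0. Pira1, Pilrb2, Fcer1g and Ptpn6 lie right of 0.58 in both comparisons with normal lung, and Lilra5 lies far left in all 3.

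Of 16 tested genes for ligands or binding partners, 3 rose and 3 fell between the macro groups, 1 rose and 8 fell in macro Ly6Ghigh against normal, and 2 rose and 7 fell in macro Ly6Glow against normal. In FPKM these numbers were 0 and 3, 1 and 13, and 1 and 11. Of all tested genes, 9.29%, 26.3% and 28.7% were called higher and 15.9%, 36.6% and 40.8% lower in counts. In FPKM, 320, 1429 and 1125 of 14108 genes were called higher and 1923, 5134 and 6438 lower. B2m, the light chain of MHC class I, had log2 fold changes of 0.37, -0.32 and 0.05, none past the fold threshold, but was called lower against normal in FPKM at -0.78 and -0.65. The fibroblast, endothelial and epithelial markers given above were higher in the same normal libraries, and their part in the ligand values was not tested.

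The profiles of the members over the 9 libraries were also set against all other genes of at least 10 CPM, 7390 in number, by the Euclidean distance of centred log2 CPM. Among members the closest pairs were Cd300lb with Cd300lf (distance 0.144), Cd300a with Lilrb4a (0.240) and Pirb with Pilrb1 (0.334), and Cd300ld with Pirb was the farthest (1.90). The gene closest to Cd300ld was Tceal9 (0.114), with means of 36.8, 88.6 and 34.5 CPM in macro Ly6Ghigh, macro Ly6Glow and normal libraries, followed by Jdp2 (0.175), a repressor of AP-1. Closest to Cd300lf was Gm2a (0.0873), a lysosomal activator of ganglioside breakdown, and Sorl1 came next (0.0956). Stk38 (0.0792) and Fpr2 (0.0866), a formyl peptide receptor, were closest to Pirb. The nearest genes were Pfkp and Taf1 for Lilrb4a, Txn1 and Rnf44 for Pilra, Cmas and Fcgr3 for Pilrb1, Atp8a1 and Cacul1 for Cd300a, and Map1lc3b and Kdm2a for Cd300lb. A small distance describes a like pattern over 3 groups and no more.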

How the data were processed

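RNA from sorted neutrophils was extracted with TRIzol, and poly(A), strand-specific libraries were read as 150-base pairs, per the labels. The submitters' processing notes name the build mm10, and the aligner and counter are not given in the sources used here. For each gene the authors deposited an estimated count, not normalized, and an FPKM value, scaled for transcript length and library total. Estimated counts were not all whole, and they were rounded here. Of 22064 genes listed, 3739 were blank and 18325 had values. Estimated counts summed to 15267177 to 17841807 per library, and correlations within a group were 0.992 to 0.994.

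The main test was edgeR 4.0.16 (R 4.3.3), fitted to the 9 libraries together without covariates after TMM scaling and filterByExpr, with its quasi-likelihood F test and Benjamini-Hochberg adjustment over all 14108 tested genes. The study's methods name DESeq2 with the fold threshold used here. The deposited FPKM were tested as log2(FPKM + 1) with limma 3.58.1, which understates changes of low genes. CPM are counts scaled to TMM-adjusted library sizes. Promoter windows came from RefSeq and transcripts from GENCODE M21, both on GRCm38.p6. For Cd300a, Cd300lf and Pilrb1 the RefSeq start lies inside the longer gene model.

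Members and gene lists were chosen with earlier results of these data known. All members were named, and of the lists the adaptors, phosphatases, B2m, Ly6g and near copies set by rule, with the 2 nearest profiles per member. Blnk, Syk, Lilra5, Inppl1, Gm14548, Gm15448 and Gm49339 were named after their values were seen.

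Alternatives were DESeq2's size factors, upper-quartile factors, DESeq2 1.42.0, other filters and thresholds, FPKM with pseudocounts of 1 and 0.1, the 6 libraries of a comparison alone, near copies summed (with or without predicted PIR genes), a replicate block, total-count scaling and leaving out each replicate.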

Additional observations from a re-analysis of the deposited data

How the results depend on the processing

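The counts of members called (4 in macro Ly6Glow against macro Ly6Ghigh, 5 in macro Ly6Ghigh against normal and 8 in macro Ly6Glow against normal) were the same with DESeq2, DESeq2's size factors, upper-quartile factors, both other filters on low counts, the 6 libraries alone and near copies summed without or with the predicted PIR genes (the latter added after seeing the data), and ranged from 4 to 4, 5 to 5 and 8 to 8 when each library was left out in turn. With the replicate block they were 4, 5 and 8. Over 9 pairs of libraries with the same replicate number in different groups, the correlation of deviations from the group mean was -0.07 to 0.08, with 0 over 0.1. Among pairs with different numbers it reached 0.145. Deviations from a mean of 3 libraries sum to 0 within a group, so this check cannot show whether same-numbered libraries were paired. On FPKM with a pseudocount of 1 or 0.1, with a minimum of 1 FPKM in 3 libraries, and with total-count scaling (chosen after seeing the data), 1, 2 and 5 members were called. Without a fold threshold 8, 8 and 8 were called, and at a threshold of 1, 1, 2 and 6. The direction turned for Pirb between the macro groups (-0.0804, -0.0806, -0.0804 and -0.0777 in these 4 fits, in that order), and against normal in macro Ly6Ghigh for Cd300a (-0.0791, -0.0803, -0.0791 and -0.0823), Cd300ld (-0.366, -0.374, -0.366 and -0.376, and also -0.103 with upper-quartile factors and -0.0844 with at least 10 counts in every library) and Lilrb4a (-0.192, -0.192, -0.192 and -0.206). These fits shift all genes: the median log2 fold change was -0.28, -0.55 and -0.86 with total-count scaling, and the share of calls that were higher fell from 36.8%, 41.8% and 41.3% to 14.3%, 21.8% and 14.9% on the FPKM scale. Depth did not limit the members, whose lowest normal level was 24.8 CPM; 3 libraries a group limits the separations of ratios.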
